A study of Homo sapiens with 8 samples.

Results

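Histone cluster genes were taken as the rows of the deposited gene tables whose symbol begins with HIST1H, HIST2H, HIST3H or HIST4H and does not end in PS or PS with digits. The rule found 77 of 55075 gene entries and left out 12 pseudogenes with such names. By their symbols, 6 encode the linker histone H1, 17 H2A, 24 H2B, 15 H3 and 15 H4. Of these, 55 belong to the HIST1 cluster on chromosome 6, 17 to HIST2 and 4 to HIST3 on chromosome 1, and 1 is HIST4H4 on chromosome 12. No measured value entered the choice, and 5 of the chosen entries are annotated as pseudogenes in GENCODE 29.

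Nucleosomes wrap DNA around pairs of H2A, H2B, H3 and H4, and H1 binds the linker between them. Most clustered genes are replication-dependent: NPAT, a target of cyclin E with CDK2, drives their transcription in S phase, and the stem-loop binding protein SLBP holds the 3′ end of the mRNA, which ends in a short hairpin and not in a poly-A tail. Some members are also known to give polyadenylated transcripts that read past the hairpin, and libraries made with oligo-dT see those far better than the tail-less form. FBXW7 is the substrate receptor of a ubiquitin ligase that marks cyclin E for degradation, among other proteins.

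RNA was sequenced in 8 libraries of HCT116, a human colon cancer cell line grown in McCoy's 5A medium, either wild type (WT) or with a knockout (KO) of FBXW7. Cells were collected after 1 h of heat shock at 42 °C, or after a further 2 h of recovery at 37 °C. Each of the 4 combinations of line and time has 2 libraries. All groups were heated, and unheated cells were not analysed here. The labels do not give the KO allele, the number of KO clones, or whether replicates were separate cultures, so a p-value covers no more than the spread of these libraries. The RNA was either poly-A selected or depleted of ribosomal RNA, and the labels do not say which was done for which library. Libraries were strand-specific, with 50-base single reads. The recovery column of each table was recognised from the comparison's name, where recovery stands first, and from the sign of the authors' fold change. If that order were wrong, heat shock and recovery would be exchanged in every result.

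The hairpin that ends a replication-dependent histone mRNA can be read from the annotated transcripts. In members, the histone stem-loop consensus was searched on the sense strand after the stop codon of GENCODE 29 transcripts. The bases of the stem's ends, of the pairs next to the loop and of the loop's TT were fixed, with any base allowed at the others. The consensus was present in 30 of the 74 members with a transcript there. This counts annotated transcripts, which can reach the hairpin of another gene. The site found for HIST1H2BN (chr6:27865773-27865798) lies just past the annotated end of HIST1H2AL on the same strand. HIST1H2AL itself is counted as without the consensus. In other coding genes the whole transcript was searched, not only the part after the stop codon, and 84 of 19615 (0.428%) held it. Only 35 members have an annotated 3′ untranslated stretch of at least 40 bases, so for the others these letters could not be in the window searched. In 29 of the 30 members the hairpin lies in a single stretch of the genome, in 5 forms that differ in the pairs of the stem and in the loop. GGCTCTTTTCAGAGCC was held by 15 members, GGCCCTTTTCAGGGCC by 5, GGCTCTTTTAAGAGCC by 5, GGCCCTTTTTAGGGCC by 3 and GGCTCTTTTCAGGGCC by 1. The sites below belong to members that the results turn on, with the hairpin in capitals and 5 bases on each side. Coordinates are GRCh38.
HIST1H2BD: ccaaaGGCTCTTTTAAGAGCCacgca
HIST1H2BC: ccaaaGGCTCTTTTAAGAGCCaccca
HIST1H2AC: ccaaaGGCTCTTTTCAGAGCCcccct
HIST2H2BE: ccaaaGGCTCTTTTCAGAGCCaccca
HIST2H2BF: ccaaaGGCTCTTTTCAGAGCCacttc
HIST1H4E: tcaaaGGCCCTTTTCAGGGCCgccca
HIST1H4B: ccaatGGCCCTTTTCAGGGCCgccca
The HIST1H2BD site lies at chr6:26158582-26158607 on the plus strand and the HIST1H2BC site at chr6:26123467-26123492 on the minus strand. The HIST1H2AC site is at chr6:26124664-26124689 (plus), that of HIST1H4E at chr6:26204996-26205021 (plus) and that of HIST1H4B at chr6:26026896-26026921 (minus). The HIST2H2BE and HIST2H2BF sites are at chr1:149886183-149886208 and chr1:149811880-149811905, both minus. The annotated transcript runs on for 1729 bases past the hairpin in HIST2H2BE, 1128 in HIST1H2AC and 1022 in HIST1H4E, against 86 in HIST1H4B and 39 in HIST1H2BD. In 22 of the 30 members with the pattern it runs on for more than 100 bases. The annotated 3′ ends of HIST1H2BD differ: its longest 3′ untranslated stretch is 384 bases, so the 39 bases do not describe all its transcripts.

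Many of these genes lie head to head, so that a short stretch of DNA holds both promoters. GENCODE 29 places 12 such pairs with starts within 1000 bases of each other. RefSeq promoters (GRCh38.p14) were matched for 61 members, and motifs were searched on both strands in the 250 bases before the start. The octamer ATTTGCAT, a site of POU2F1, was present in 26 of 61 (42.6%, against 1.63% of 35116 promoters). Among them were 11 of 14 H2A and 14 of 18 H2B genes, and no H1 or H4 gene. Windows of head-to-head genes overlap, so a single octamer can be counted for both genes of a pair. The H2A and H2B counts are therefore not independent. HIST2H2AC and HIST1H2AJ, for example, are counted but hold no octamer in the 100 bases before the start. TATAAA was present in 40 (65.6%, against 10.7%) and CCAAT in 51 (83.6%, against 32%), the latter in 3 of 13 H4 genes and in every H1, H2A, H2B and H3 gene matched. The heat shock element core GAANNTTC was found in 3 members (4.92%, against 5.78%), all H3, and the E-box CACGTG in 0 (against 6.34%). The 100 bases before the start are shown for a pair whose members had values of opposite sign in KO recovery and for a pair that fell together in WT recovery. Capitals mark matches to the TATA box, the CCAAT box and the octamer on either strand.
HIST2H2BE: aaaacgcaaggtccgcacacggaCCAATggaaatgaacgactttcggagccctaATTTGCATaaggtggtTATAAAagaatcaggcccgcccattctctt
HIST2H2AC: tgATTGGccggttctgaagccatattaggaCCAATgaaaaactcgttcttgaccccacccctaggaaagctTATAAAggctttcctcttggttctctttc
HIST1H2AJ: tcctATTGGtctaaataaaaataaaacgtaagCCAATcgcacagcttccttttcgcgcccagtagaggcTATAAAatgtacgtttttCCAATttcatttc
HIST1H2BM: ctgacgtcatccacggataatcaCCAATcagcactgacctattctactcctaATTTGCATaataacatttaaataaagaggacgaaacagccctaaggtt
These stretches are chr1:149886683-149886782 (minus), chr1:149886818-149886917 (plus), chr6:27814778-27814877 (minus) and chr6:27814922-27815021 (plus). Distances between starts, here and below, are those of GENCODE 29 and not of the RefSeq starts that these stretches precede. The first pair starts 322 bases apart and the other 303.

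Library totals ran from 15507896 to 34387618 counts, and 17471 genes were tested. FBXW7 was at 33.5 and 31.4 CPM (counts scaled to library size) in WT heat shock, 23.0 and 21.7 in WT recovery, 17.4 and 14.9 in KO heat shock and 14.01 and 13.8 in KO recovery, so all 4 KO libraries were below all 4 WT libraries. Of 6 epithelial markers all were tested, with EPCAM at 247 to 339 CPM, of 6 mesenchymal markers 2 were tested, and of 6 immune and erythroid markers none, with a summed level of 0.119 to 0.893 CPM and CD3E at 0 in every library. Counts of replicates differed by 2.57 to 20.6 times the sampling variance over all genes and by 0.899 to 1.74 times over members, whose counts are low.

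The histone cluster genes gave few reads. Members took 762 to 2131 reads per library, or 0.00469% to 0.00688% of the total, and 10119 reads over the 8 libraries. Their summed level was 48.6 and 48.0 CPM in WT heat shock, 48.0 and 45.2 CPM in WT recovery, 67.2 and 60.6 CPM in KO heat shock and 58.7 and 54.8 CPM in KO recovery. Over the same libraries, the 12 replacement and variant histone genes outside the clusters, such as H3F3B and H2AFZ, which are polyadenylated, summed to 1706 to 2048 CPM. Of the 77 members, 28 had no read in any library, which allows up to 0.0872 to 0.193 CPM per library (3 counts, counting error only). This bound may not hold for near-identical copies, since reads that map to several places could have been dropped. Among the 28, HIST2H3A, HIST2H3C and HIST2H2AA4 share 100% of their 50-base windows with other annotated copies. The share is 97.5% for HIST2H4A and 97.2% for HIST2H4B. Another 19 had 1 to 40 reads over the 8 libraries and were too low to test. The 30 members tested had 30 reads or more, and 2.97% of the members' reads lay outside them. These 30 are not a sample of all members, since a gene high in only 1 group could pass.

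A few members held most reads. The 12 with the highest mean CPM held 79.1% of the reads, and HIST1H2BK, an H2B gene, held 22.9% alone. Per kilobase of annotated transcript HIST1H2BK was also first, with 32.8 CPM per kilobase, ahead of HIST1H4C (13.99), the linker histone gene HIST1H1C (8.42) and HIST1H2BD (6.25). These are levels over GENCODE 29 transcripts, which are not the authors' gene models. Of 50-base windows in the HIST1H2BK transcript, 74.1% occur in other genes as well, so part of its reads may belong to other H2B copies. The share was 83.7% for HIST1H2AJ, all with HIST1H2AI, 30.5% for HIST2H2AC, 25.7% for HIST2H2BF and 13.6% for HIST1H2BO. Of the 12 highest members, HIST3H2A, HIST1H2AG and HIST2H2BE passed in none of the 5 comparisons. HIST3H2A was at 2.51 and 1.74 CPM in WT heat shock, 3.22 and 2.43 CPM in WT recovery, 2.32 and 2.64 CPM in KO heat shock and 2.63 and 2.89 CPM in KO recovery, and the 4 groups lay close together. HIST1H2AG was at 1.07 and 0.975, 0.790 and 1.19, 1.65 and 1.68 and 1.87 and 1.18 CPM in the same order, and the lines overlapped at recovery.

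**Figure D1:**
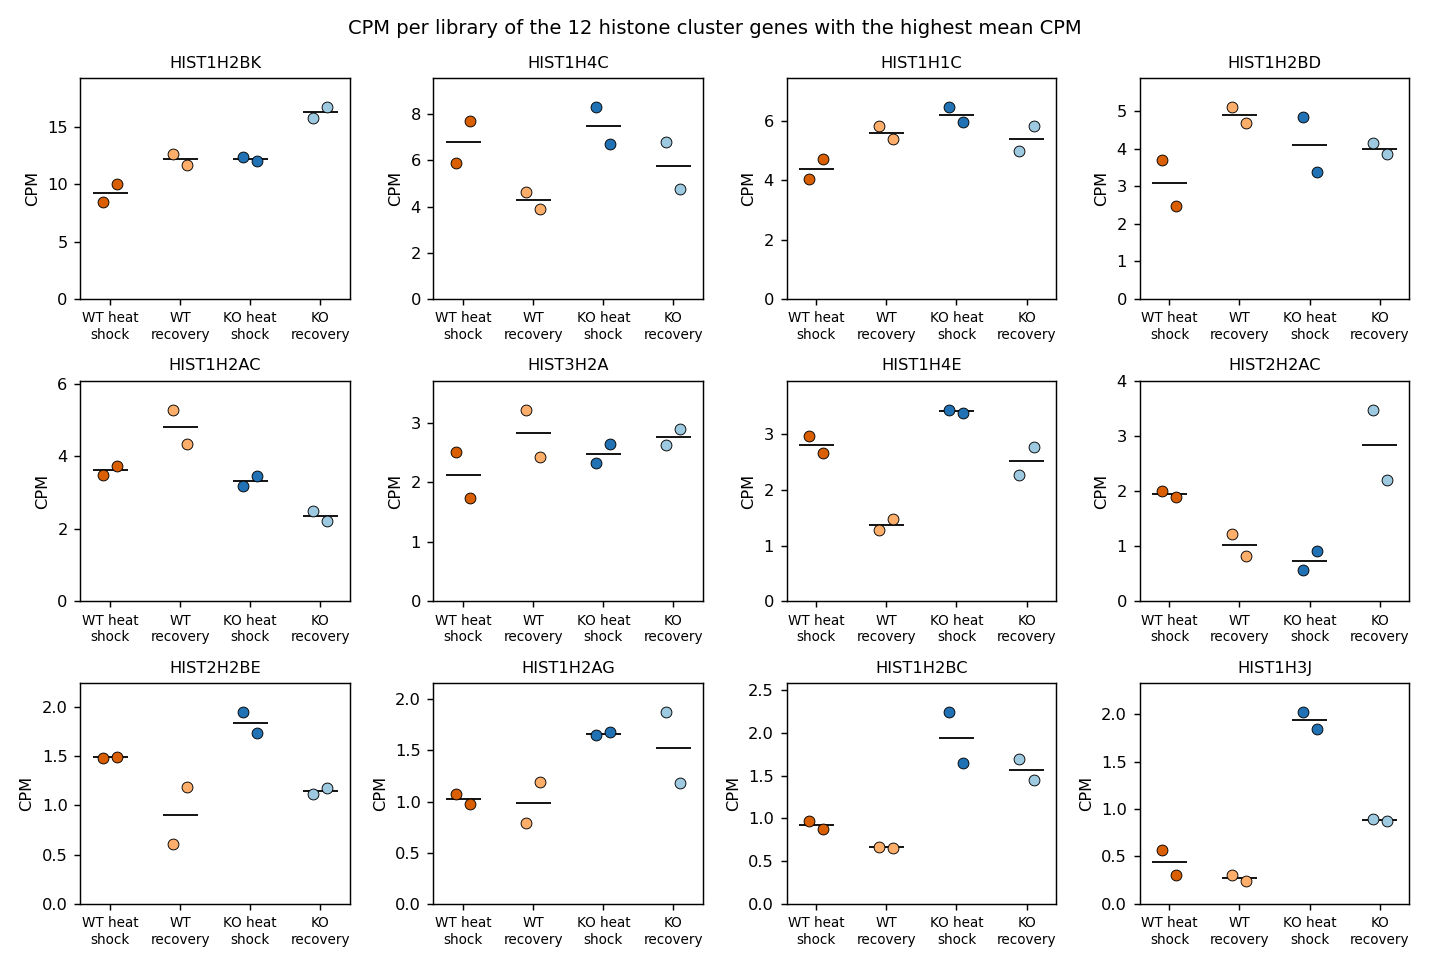
Level in CPM (vertical axes, from 0) of the 12 histone cluster genes with the highest mean CPM, by group; each point is 1 library and each line the mean of 2. HIST1H2BK is highest in KO recovery (15.8 and 16.8 CPM), HIST1H3J is above 1.8 CPM only in KO heat shock, and HIST2H2AC is lowest in KO heat shock and highest in KO recovery.

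The members can be parted by whether polyadenylated transcripts are known for them, from general knowledge: 11 members are in that list, of which 8 were tested, and 66 are outside it, of which 22 were tested. The 11 listed genes summed to 25.2 and 25.7 CPM in WT heat shock, 34.2 and 30.8 CPM in WT recovery, 34.3 and 31.7 CPM in KO heat shock and 33.6 and 34.7 CPM in KO recovery. Both WT heat shock libraries were the lowest, and the other groups lay close together. The 66 other members summed to 23.4 and 22.3 CPM in WT heat shock, 13.9 and 14.4 CPM in WT recovery, 32.9 and 28.9 CPM in KO heat shock and 25.1 and 20.1 CPM in KO recovery. Here KO heat shock was highest and WT recovery lowest, and no groups overlapped other than WT heat shock with KO recovery. A list of 12 abundant RNAs that carry no poly-A tail fills 14 entries of the tables, since RPPH1 and SCARNA10 have 2 entries each with nearly the same values, and both entries are in the sum. The sum was 18.3 and 17.1 CPM in WT heat shock, 7.41 and 10.8 CPM in WT recovery, 46.3 and 39.0 CPM in KO heat shock and 19.9 and 15.4 CPM in KO recovery. RN7SK, the scaffold of a transcription elongation inhibitor, was at 8.14 and 6.36, 1.28 and 3.44, 18.4 and 14.3 and 5.67 and 5.83 CPM in the same order. RMRP, the RNA of an endonuclease, was at 3.84 and 3.85, 1.40 and 1.90, 10.97 and 10.7 and 4.82 and 2.44 CPM. RN7SK, RMRP and the sum were highest in KO heat shock and lowest in WT recovery, as the summed 66 members were. Not every RNA of the list had that order: RN7SL1, chosen after its values were seen, was highest in KO recovery (1.47 and 1.33 CPM) and at 0.562 and 0.682 CPM in KO heat shock. SCARNA12, chosen in the same way, was at 3.28 and 2.72, 1.64 and 1.72, 2.88 and 1.82 and 3.70 and 2.63 CPM. Their part in the results below was not tested, and how far each library took up tail-less RNA cannot be told apart from the groups.

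**Figure D2:**
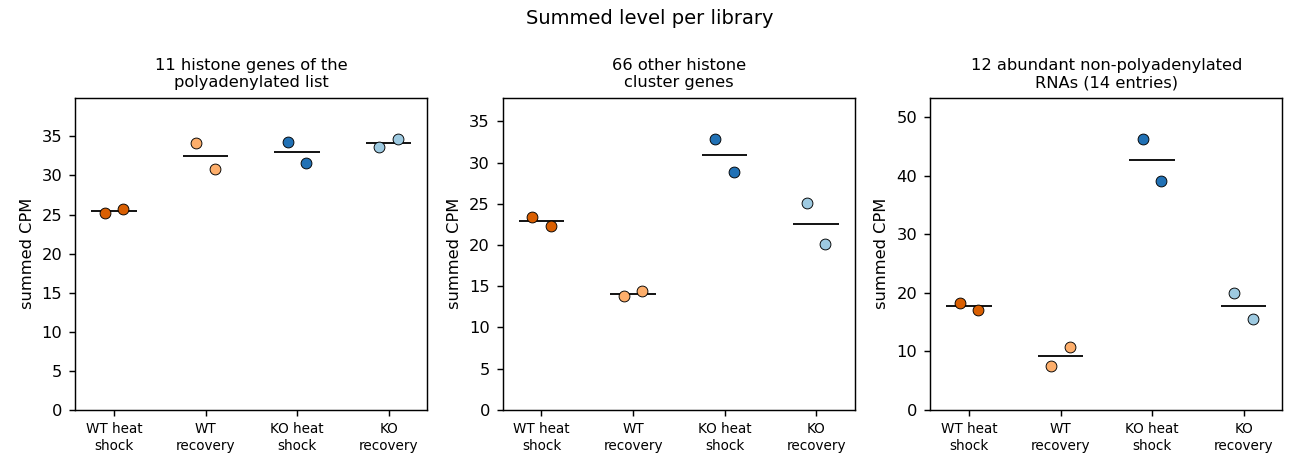
Summed CPM (vertical axes, from 0) of the 11 histone genes known to give polyadenylated transcripts, of the 66 other members and of 12 abundant non-polyadenylated RNAs in 14 entries, of which RPPH1 and SCARNA10 are entered 2 times each, by group; points are libraries and lines means of 2. KO heat shock is highest and WT recovery lowest in the panels of the 66 members and of the non-polyadenylated RNAs, and WT heat shock is lowest in the panel of the 11.

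The first comparison asked which members changed in WT cells between heat shock and recovery. Of 30 tested, 7 fell and 2 rose, where 26% of all genes tested fell and 24.8% rose by the quasi-likelihood test of edgeR (Benjamini-Hochberg adjusted), a share in either direction of 50.8%. The shares of members were 23.3% and 6.67%, so the fall was near the background and the rise below it. The median log2 change of members was -0.62, against 0.01 over all genes. The 7 that fell are all outside the polyadenylated list (7 of 22, median -0.79), and the 2 that rose are both in it (2 of 8, median 0.38). A split by annotated transcript did not show this contrast. Of 10 tested members with over 100 bases past a hairpin, 0 rose and 1 fell (median -0.53). That 1 is HIST1H4E, which is outside the list although its transcript runs on for 1022 bases. Of 17 tested members without the hairpin letters, 1 rose and 5 fell (median -0.67). Fewer cells in S phase and less histone RNA per cell cannot be told apart in bulk RNA.

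Genes of histone H4 made up 3 of the 7. HIST1H4E stood at 2.97 and 2.67 CPM at heat shock and 1.28 and 1.48 CPM at recovery, a log2 change of -1.03 ± 0.28 (edgeR adjusted p = 0.00506). HIST1H4C went from 5.89 and 7.69 CPM to 4.62 and 3.92 CPM (-0.67 ± 0.19, edgeR adjusted p = 0.00713). HIST1H4B went from 0.717 and 0.256 CPM to 0.182 and 0.0593 CPM (-1.96 ± 0.77, edgeR adjusted p = 0.0415). In each gene both recovery libraries lay below both heat shock libraries. The level of HIST1H4B rests on 3 and 1 reads at recovery, and its call was lost in 8 of 14 alternatives. The fourth H4 gene tested, HIST1H4A, gave -0.22 ± 0.49 (edgeR adjusted p = 0.741). Summed over the H4 class, the level was 11.62 and 12.003 CPM at heat shock and 7.48 and 6.76 CPM at recovery.

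The other members that fell were H2A and H2B genes. HIST1H2AJ and HIST1H2BM start 303 bases apart in opposite directions. HIST1H2AJ went from 0.665 and 0.718 CPM to 0.122 and 0.297 CPM (-1.70 ± 0.63, edgeR adjusted p = 0.0304), and HIST1H2BM from 0.717 and 0.718 CPM to 0.122 and 0.297 CPM (-1.75 ± 0.63, edgeR adjusted p = 0.0259). The values of this pair ran alike at both times. HIST1H2BO went from 0.256 and 0.667 CPM to 0.122 and 0.0593 CPM (-2.28 ± 0.84, edgeR adjusted p = 0.0298). HIST2H2AC, an H2A gene of chromosome 1, went from 2.00 and 1.90 CPM to 1.22 and 0.830 CPM (-0.93 ± 0.37, edgeR adjusted p = 0.0433). No recovery library of these genes reached the lower heat shock library, although the level of HIST1H2BO rests on 2 and 1 reads at recovery. HIST1H2AJ and HIST1H2BM rest on 2 and 5 reads each at recovery. The call of each was lost in 5 of 14 alternatives, the DESeq2 test among them.

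HIST1H2BD and HIST1H2BK, both H2B genes of the polyadenylated list, went the other way. HIST1H2BD rose from 3.69 and 2.46 CPM to 5.10 and 4.69 CPM (0.68 ± 0.22, edgeR adjusted p = 0.0136), and HIST1H2BK from 8.45 and 10.1 CPM to 12.7 and 11.7 CPM (0.40 ± 0.14, edgeR adjusted p = 0.0223). Neither overlapped between the times. HIST1H1C, HIST1H2AC and HIST3H2A of the same list had values of 0.36, 0.41 and 0.41 that did not pass (edgeR adjusted p = 0.126, 0.116 and 0.184). HIST1H2BC and HIST2H2BE, also listed, had values of -0.48 and -0.73 that did not pass (edgeR adjusted p = 0.357 and 0.108). With length and GC offsets neither HIST1H2BD nor HIST1H2BK passed. DESeq2 called 0 of 30 members, with 1 higher and 2 lower at an unadjusted p under 0.05 (edgeR: 2 and 8), and with 1 WT library left out the count of falls was 2 without heat shock or recovery replicate 1, and 1 without heat shock or recovery replicate 2.

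The same comparison in KO cells gave 7 members that fell and 2 that rose, where 21.1% of all genes fell and 20.6% rose (41.8% in either direction). The share of members that fell was 23.3%, near that background. Their median was -0.42, against -0.02 over all genes. As in WT, the 7 that fell are outside the polyadenylated list (7 of 22). HIST1H2AJ is the 1 gene that fell in both lines. By class, 3 of 5 tested H3 genes fell in KO and 0 of 4 H4 genes, against 0 and 3 in WT. The H3 class summed to 5.69 and 4.69 CPM at heat shock and 2.86 and 2.13 CPM at recovery.

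HIST1H3J, HIST1H3B and HIST1H3D all encode H3.1, the H3 form laid down with replication. HIST1H3J went from 2.02 and 1.85 CPM to 0.893 and 0.876 CPM (-1.12 ± 0.31, edgeR adjusted p = 0.00667). HIST1H3D went from 1.76 and 1.08 CPM to 0.669 and 0.419 CPM (-1.37 ± 0.39, edgeR adjusted p = 0.00827), and HIST1H3B from 1.01 and 0.995 CPM to 0.491 and 0.343 CPM (-1.28 ± 0.42, edgeR adjusted p = 0.0201). The times did not overlap in any of these genes. HIST1H3J overlaps HIST1H2AM on the same strand, and HIST1H3D and HIST1H2AD overlap 1 further annotated gene, so their reads could be shared.

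The linker histone gene HIST1H1E and 3 H2A genes fell with them. HIST1H1E (chromosome 6, 26156354 to 26157107, plus strand, GRCh38) had 47 and 52 reads at heat shock and 6 and 21 reads at recovery. That is 1.76 and 1.48 CPM against 0.268 and 0.800 CPM (-1.55 ± 0.42, edgeR adjusted p = 0.00587). HIST1H2AJ went from 1.498 and 1.31 CPM to 0.312 and 0.609 CPM (-1.56 ± 0.40, edgeR adjusted p = 0.00401), HIST1H2AM from 1.24 and 1.02 CPM to 0.268 and 0.533 CPM (-1.45 ± 0.44, edgeR adjusted p = 0.0123) and HIST1H2AD from 1.39 and 0.739 CPM to 0.357 and 0.267 CPM (-1.72 ± 0.52, edgeR adjusted p = 0.0127). All 4 genes were higher in both heat shock libraries than in either recovery library, which describes the libraries the test used and adds no support to it.

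HIST2H2AC rose in KO cells. It lies on chromosome 1 (149886975 to 149887364, plus strand, GRCh38), and it went from 0.562 and 0.909 CPM to 3.48 and 2.21 CPM, a log2 change of 1.87 ± 0.32 (edgeR adjusted p = 0.000122). HIST1H2BK rose from 12.4 and 12.1 CPM to 15.8 and 16.8 CPM (0.42 ± 0.12, edgeR adjusted p = 0.0093), but with length and GC offsets its value was -0.05 (edgeR adjusted p = 0.789). Both genes share 50-base windows with other copies, as given above. HIST2H2BE, whose start is 322 bases from that of HIST2H2AC, had a value of -0.67 that did not pass (edgeR adjusted p = 0.0805). With replicate 1 of either KO group left out the count of falls was 0, and with replicate 2 left out it was 4. DESeq2 called HIST2H2AC only and gave 7 of the 9 called members no adjusted p.

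Over both lines, 19 of 30 members had a value below 0 in WT and in KO, 3 were above 0 in both and 8 had opposite signs. The joint count is not given for all genes, so these numbers have no background. Taken singly, 22 members in WT and 24 in KO were below 0, against 8643 and 9078 of 17471 genes. HIST1H2AJ fell in both lines, but its WT call was lost with DESeq2 and with any 1 WT library left out. HIST1H2BK rose in both, but its calls were lost in 5 of 14 alternatives in WT, among them no filter and DESeq2, and in KO with DESeq2 and with any 1 KO library left out, besides the offsets. HIST2H2AC was the 1 member called in opposite directions, and its WT fall was lost in 6 of 14 alternatives: upper-quartile scaling, DESeq2 and each WT library left out.

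**Figure D3:**
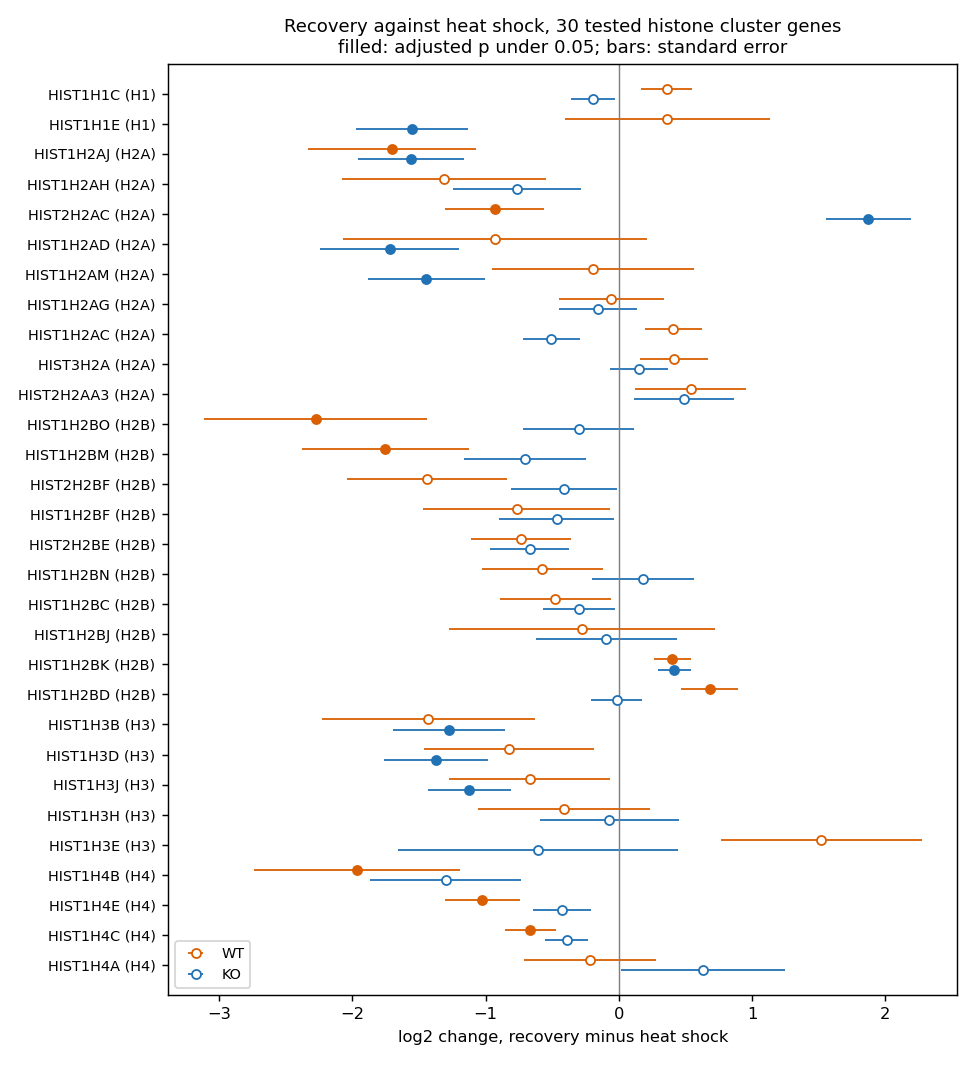
Log2 change from heat shock to recovery (horizontal axis) of the 30 tested histone cluster genes, by class, in WT (orange) and KO (blue); bars are standard errors and filled points passed the test. Falls that passed are in H4, H2A and H2B genes in WT and in H1, H2A and H3 genes in KO, and HIST2H2AC is filled on opposite sides of 0.

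The difference between the recovery responses was tested as an interaction. It passed for 3 of 30 members, 1 higher and 2 lower in KO, where 28.5% of all genes were higher and 27.8% lower (56.3% in either direction). HIST2H2AC had an interaction of 2.80 ± 0.49 on the log2 scale (edgeR adjusted p = 8e-05). HIST1H2AC went from 3.48 and 3.74 CPM to 5.29 and 4.33 CPM in WT and from 3.18 and 3.47 CPM to 2.50 and 2.21 CPM in KO, up in both WT pairs and down in both KO pairs, with an interaction of -0.92 ± 0.30 (edgeR adjusted p = 0.0141). HIST1H2BD went from 4.83 and 3.38 CPM to 4.15 and 3.85 CPM in KO, with overlap between the times, and its interaction was -0.70 ± 0.29 (edgeR adjusted p = 0.0473). The interaction passed for none of the 4 H4 genes (0.27 to 0.85, edgeR adjusted p = 0.164 to 0.601) and none of the 5 H3 genes (-2.13 to 0.34, edgeR adjusted p = 0.178 to 0.888), so a difference between the lines in these classes was not shown. HIST1H2BD lost its call in 8 of 14 alternatives and HIST1H2AC in 6, and HIST2H2AC in 0.

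At heat shock, 10 members were higher and 2 lower in KO than in WT cells, where 27.4% of all genes were higher and 28.2% lower (55.6% in either direction). The share of members that were higher, 33.3%, was near the background, and the share that were lower, 6.67%, was below it. The median difference was 0.40, against -0.03 over all genes.

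The H3.1 genes and HIST1H1E were among those higher in KO. HIST1H3J was at 0.563 and 0.308 CPM in WT and 2.02 and 1.85 CPM in KO, a log2 difference of 2.13 ± 0.34 (edgeR adjusted p = 1e-04). HIST1H1E was at 0.154 and 0.359 CPM in WT and 1.76 and 1.48 CPM in KO (2.62 ± 0.49, edgeR adjusted p = 0.000413), from 3 and 7 reads in WT. HIST1H3B was at 0.307 and 0.359 CPM against 1.01 and 0.995 CPM (1.57 ± 0.39, edgeR adjusted p = 0.00352). HIST1H3D was at 0.665 and 0.308 CPM against 1.76 and 1.08 CPM (1.51 ± 0.43, edgeR adjusted p = 0.00798). These 4 genes are the ones of classes H3 and H1 that fell in KO recovery, and the KO heat shock libraries enter both comparisons.

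Among the H2A and H2B genes, HIST1H2AM was at 0.461 and 0.103 CPM in WT and 1.24 and 1.02 CPM in KO (1.97 ± 0.50, edgeR adjusted p = 0.00405). HIST1H2AD was at 0.307 and 0.0513 CPM against 1.39 and 0.739 CPM (2.49 ± 0.64, edgeR adjusted p = 0.00407), where the lower WT library holds a single read. HIST1H2BC was at 0.973 and 0.872 CPM against 2.25 and 1.65 CPM (1.06 ± 0.29, edgeR adjusted p = 0.0062). The other genes higher in KO were HIST1H2AJ (1.01), HIST1H1C (0.50) and HIST1H2BK (0.40). HIST1H1C was at 4.04 and 4.72 CPM in WT and 6.48 and 5.97 CPM in KO, and its recovery libraries lay between, at 5.83 and 5.40 CPM in WT and 5.00 and 5.83 CPM in KO. HIST2H2AC and HIST1H4A were lower in KO. HIST2H2AC was at 2.00 and 1.90 CPM in WT and 0.562 and 0.909 CPM in KO (-1.36 ± 0.33, edgeR adjusted p = 0.00303), and HIST1H4A at 0.921 and 0.616 CPM against 0.150 and 0.256 CPM (-1.85 ± 0.51, edgeR adjusted p = 0.00643). Neither passed with offsets for gene length and GC content, and HIST1H4A did not pass without WT heat shock replicate 1. Without KO heat shock replicate 1 the count higher in KO was 5.

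At recovery, 8 members were higher and 2 lower in KO, where 31.8% of all genes were higher and 31.3% lower (63.1% in either direction). The shares of members, 26.7% and 6.67%, were both below the background, while their median difference of 0.75 was further from 0 than the -0.01 of all genes. The share higher was 25% in the polyadenylated list (2 of 8) and 27.3% outside it (6 of 22).

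HIST2H2AC, lower in KO at heat shock, was higher in KO at recovery, with 1.22 and 0.830 CPM in WT and 3.48 and 2.21 CPM in KO (1.46 ± 0.33, edgeR adjusted p = 0.00141). HIST1H2AC was lower in KO, at 5.29 and 4.33 CPM against 2.50 and 2.21 CPM (-1.03 ± 0.20, edgeR adjusted p = 0.000352). So was HIST1H3E, at 0.425 and 0.475 CPM against 0.0893 and 0.0381 CPM (-2.76 ± 0.72, edgeR adjusted p = 0.00372), the member with the fewest reads of those tested, 30 over the 8 libraries. HIST1H2AC and HIST1H2BC start 218 bases apart and went opposite ways between the lines. HIST1H2BC was at 0.668 and 0.653 CPM in WT and 1.70 and 1.45 CPM in KO (1.24 ± 0.34, edgeR adjusted p = 0.00561).

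HIST1H3J was at 0.304 and 0.237 CPM in WT and 0.893 and 0.876 CPM in KO (1.69 ± 0.46, edgeR adjusted p = 0.0052). HIST1H4E was at 1.28 and 1.48 CPM against 2.28 and 2.78 CPM (0.88 ± 0.25, edgeR adjusted p = 0.00642). HIST1H2BO was at 0.122 and 0.0593 CPM against 0.759 and 0.571 CPM (2.80 ± 0.81, edgeR adjusted p = 0.00751). Both HIST1H4E and HIST1H2BO fell in WT recovery, whose libraries enter this comparison too. HIST1H3B (1.73), HIST2H2BF (1.39) and HIST1H2BK (0.42) were the other members higher in KO. HIST1H2BC, HIST1H2BK, HIST1H3B and HIST1H3J were higher in KO at both conditions, which is 4 of the 10 called at heat shock and 4 of the 8 called at recovery. The share of all genes higher in KO at both is not given, so this overlap has no background. The count higher in KO was 3 without WT recovery replicate 2, and it was 14 with length and GC offsets.

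**Figure D4:**
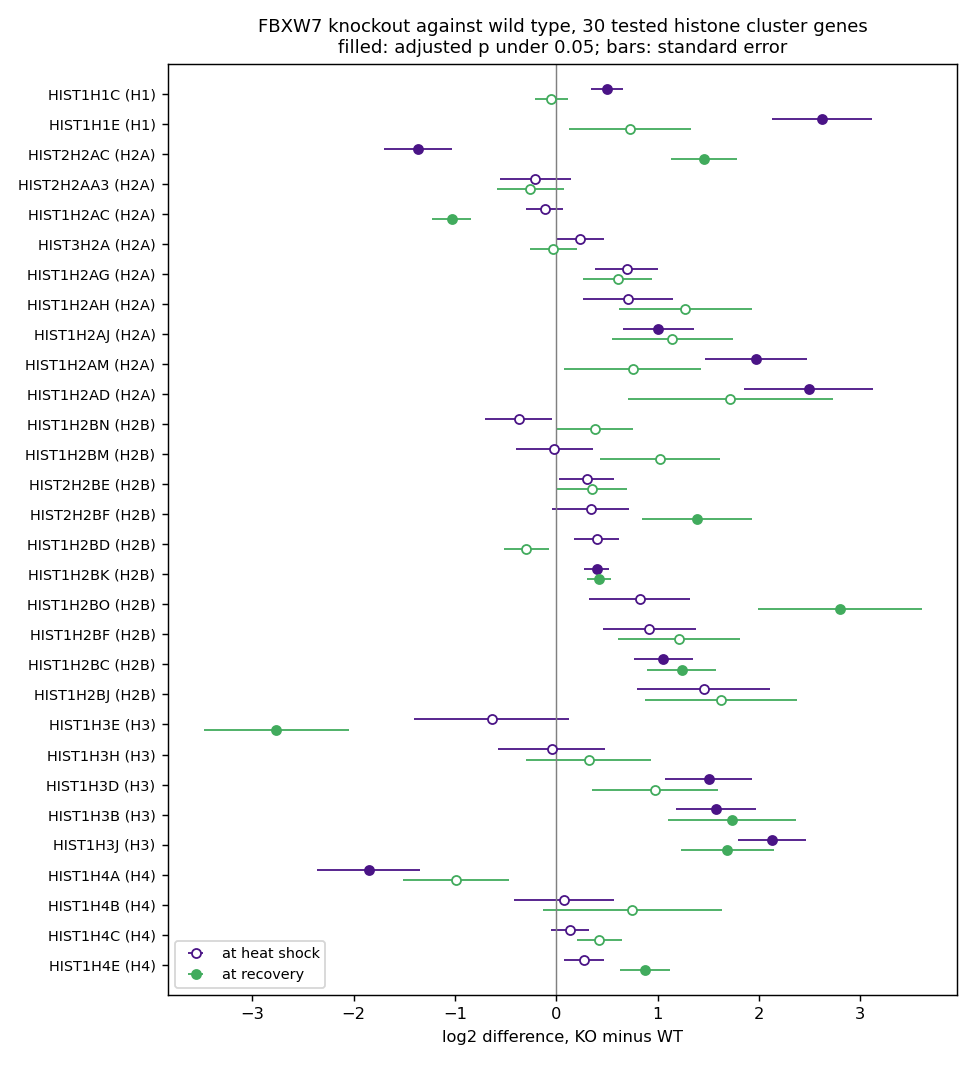
Log2 difference between KO and WT cells (horizontal axis) of the 30 tested histone cluster genes, by class, at heat shock (purple) and at recovery (green); bars are standard errors and filled points passed the test. Most filled points lie to the right of 0, and HIST2H2AC has filled points on both sides.

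Members of a head-to-head pair did not always share a direction. Of the 12 pairs, 8 have both genes tested, and HIST1H2BO is in 2 of those, beside HIST1H3J and HIST1H2AM. The signs of the pair were the same in 6 of 8 in WT recovery, 6 in KO recovery, 5 for KO against WT at heat shock and 7 at recovery, as a description. Of the 30 members, 22 were below 0 in WT recovery and 24 in KO recovery. Between the lines 22 were above 0 at heat shock and 23 at recovery. Members that are not paired would therefore often share a sign too. HIST1H2AJ and HIST1H2BM gave -1.70 and -1.75 in WT and -1.56 and -0.71 in KO, the last not passing (edgeR adjusted p = 0.232). HIST2H2BE and HIST2H2AC gave -0.73 and -0.93 in WT and -0.67 and 1.87 in KO. HIST2H2BE was at 1.48 and 1.49 and 0.608 and 1.19 CPM in WT and at 1.95 and 1.73 and 1.12 and 1.18 CPM in KO, so its level at recovery was lower than at heat shock in all 4 pairs of libraries, while HIST2H2AC was higher at recovery in both KO pairs. Both genes of this pair have a TATA box, a CCAAT box and an octamer in the RefSeq promoter window. Their windows overlap, so the octamer near the HIST2H2BE start is counted for both genes. The stretch next to the HIST2H2AC start holds a TATA box and a CCAAT box but no octamer.

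**Figure D5:**
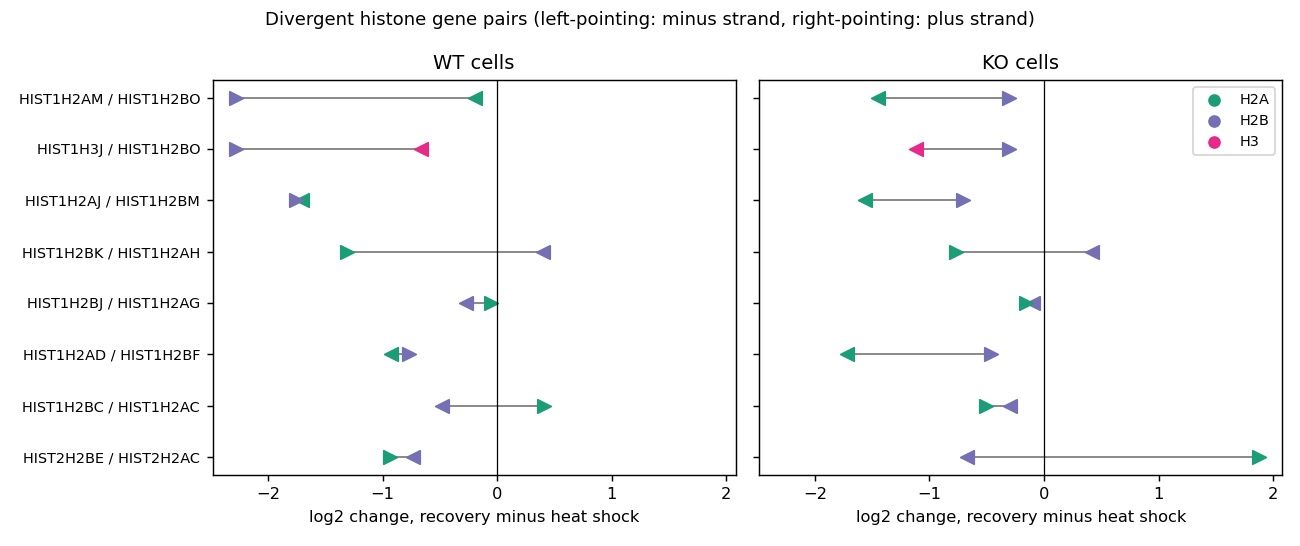
Log2 change from heat shock to recovery (horizontal axes) of the 8 head-to-head histone gene pairs with both genes tested, in WT and KO cells; a grey line joins the 2 genes of a pair and colours give the histone class. HIST1H2AJ and HIST1H2BM nearly coincide in WT, and HIST2H2BE and HIST2H2AC lie on either side of 0 in KO.

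Genes of the machinery that makes and removes histone mRNA were tested in the same fits. Of 20 genes of histone transcription and 3′ end processing, 12 fell (60%, against 26% of all genes) and 1 rose (5%, against 24.8%) in WT recovery. In KO recovery 8 fell (40%, against 21.1%) and 5 rose (25%, against 20.6%). SLBP, which binds the hairpin shown above, fell in WT (-0.48 ± 0.10, edgeR adjusted p = 0.00087) and gave -0.13 ± 0.10 in KO (edgeR adjusted p = 0.329). NPAT gave 0.00 ± 0.10 and -0.24 ± 0.09, neither of which passed (edgeR adjusted p = 0.997 and 0.0505). CCNE1, encoding cyclin E1, an FBXW7 substrate, fell in WT (-0.58 ± 0.10) and rose in KO (0.41 ± 0.09). Between the lines 9 of these genes were higher and 6 lower in KO at heat shock (45% and 30%, against 27.4% and 28.2% of all genes), and 9 and 3 at recovery (45% and 15%, against 31.8% and 31.3%). CCNE1 was higher in KO at both (0.67 and 1.66), as was SLBP (0.31 and 0.66). Of 7 genes of histone mRNA decay, 4 rose and 2 fell in WT (57.1% and 28.6%, against 24.8% and 26% of all genes, the latter near that share). In KO 0 rose and 4 fell (57.1% fell, against 21.1%). XRN1, the 5′ exonuclease, rose by 0.83 in WT and fell by 0.78 in KO.

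Genes of S phase, such as those of the replication machinery, gave other counts than the histone genes. Of 16 such genes, 15 fell and 0 rose in WT recovery (93.8% fell, against 26% of all genes, median -0.77). In KO recovery 0 fell and 5 rose (31.2% rose, against 20.6%, median 0.10). There 7 of 30 histone genes fell, a share of 23.3% that was near the 21.1% of all genes. At heat shock 2 were higher and 8 lower in KO (12.5% and 50%, against 27.4% and 28.2%, median -0.19). At recovery 15 were higher and 0 lower (93.8% higher, against 31.8%, median 0.68). Of the abundant non-polyadenylated RNAs, 8 entries were tested, 2 of them RPPH1, so that 1 RNA counts 2 times. Of these entries, 3 fell and 0 rose in WT (37.5% fell, against 26% of all genes), 5 fell and 1 rose in KO (62.5% fell, against 21.1%), and 4 were higher and 0 lower in KO at each condition (50%, against 27.4% at heat shock and 31.8% at recovery). RN7SK gave -1.62 ± 0.27 and -1.49 ± 0.20 in recovery and 1.17 ± 0.21 and 1.28 ± 0.30 between the lines, all of which passed. RMRP gave -1.22 ± 0.28, -1.63 ± 0.20, 1.49 ± 0.22 and 1.11 ± 0.31, all of which passed. Short coding genes in general, with a median transcript of at most 700 bases, had medians of -0.06, 0.02, -0.07 and 0.07 in the same comparisons, over 2539 genes.

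The 5 genes outside the clusters whose level over the 8 libraries ran most like the summed level of the members were RHBDD3 (Pearson r = 0.986), SPATA5L1 (0.985), GTF2A1 (0.984), RPIA (0.981) and RP11-392O18.1 (0.976), among 11554 genes with a mean of at least 5 CPM. RHBDD3 was at 6.19 and 5.75 CPM in WT heat shock, 5.77 and 5.28 in WT recovery, 9.29 and 7.73 in KO heat shock and 7.45 and 7.35 in KO recovery. The values rest on 4 groups of 2 libraries and describe these libraries only.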

How the data were processed

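The members and gene lists were chosen with earlier results of these data known. The authors deposited 4 tables, 1 per line and replicate number, holding raw read counts per Ensembl gene for a recovery and a heat shock library; entries given as missing were taken as 0. Per the submitters' processing notes, TopHat, CASAVA and the hg19 genome were used, with no roles stated. The program that counted reads, its strand setting and its treatment of reads that map to several places are unknown (not given in the sources used), and the last bears on near-identical histone copies.

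Counts were scaled by TMM and filtered with filterByExpr in edgeR 4.0.16 (R 4.3.3, limma 3.58.1), which left 17471 of 55075 entries, and tested with the quasi-likelihood test over all of them, with Benjamini-Hochberg adjustment and a threshold of 0.05. Recovery was tested within each line with the replicate number as a block (2 residual degrees of freedom), since the authors' tables set same-numbered libraries against each other, although nothing says that a number marks a shared culture, and the lines were compared within each condition by group means (4 residual degrees of freedom). A log2 value is the fitted change with its standard error, and 2 libraries per group limit its precision. Where libraries of a called member are said not to overlap, this describes the libraries that the test used and adds no support to it. The summed levels are TMM-scaled CPM. The fits were checked on simulated counts. Alternatives were DESeq2 size factors, upper-quartile scaling, no filter on low counts, the DESeq2 1.42.0 Wald test, the block removed or added, offsets for gene length and GC content (known for 29 of the 30 tested members and 16685 of 17471 genes), each library left out, and total counts for summed levels.

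Members were matched to GENCODE 29 on GRCh38 by identifier (40) or symbol (34), and 3 were not matched. The files' own hg19 coordinates were not used. Any member could be named. Values in every library were given for the 12 members of highest mean CPM and, in each comparison, for up to 6 members in each direction that passed, lowest p first. Of other genes, FBXW7, SLBP, NPAT, CCNE1, RN7SK and RMRP were always eligible, with up to 4 of each list with the lowest p and the 5 most alike in level.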

Additional observations from a re-analysis of the deposited data

Results flagged for a closer look

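For 3 members the recovery response differed between the lines by the interaction test (edgeR's quasi-likelihood test, Benjamini-Hochberg adjusted p). HIST2H2AC had the value farthest from 0, with KO recovery minus WT recovery at 2.80 on the log2 scale (adjusted p = 8e-05): it was lower at recovery in both WT pairs and higher in both KO pairs. HIST1H2AC had -0.92 (adjusted p = 0.0141), with both WT pairs up and both KO pairs down. HIST1H2BD had -0.70 (adjusted p = 0.0473), with both WT pairs up and the KO pairs split.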

How the results depend on the processing

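Of 43 called values of members, 9 kept their direction and call in every alternative that gave a value. For HIST2H2AC these were KO recovery, the interaction and the lines at recovery. The others were between the lines: HIST1H1E, HIST1H2AD and HIST1H3J at heat shock, and HIST1H2AC, HIST1H2BC and HIST1H3E at recovery. HIST1H1E and HIST1H2AD were highest in KO heat shock and HIST1H3E in WT recovery. Each could therefore pass the filter on low counts through a group that its call compares. Their calls were also kept with no filter, but the set medians include members chosen in this way. With the DESeq2 test, WT recovery had 0 higher and 0 lower, KO recovery 1 higher and 0 lower (2 and 2 at an unadjusted p under 0.05, with 19 of 30 members given no adjusted p), and the interaction 0 lower (0 unadjusted). With no filter, WT recovery had 1 higher and the interaction 1 lower. With length and GC offsets, WT recovery and KO recovery had 1 higher each, the interaction 2 higher, the lines 1 lower at heat shock and 14 higher at recovery, and HIST1H2BK in KO recovery turned to -0.048. The cause was not tested. The median of all genes was 0.01 in WT recovery, -0.03 in the interaction and -0.01 for KO against WT at recovery. With the offsets it was -0.14, 0.13 and 0.18, and with upper-quartile scaling 0.10, -0.14 and -0.18. Upper-quartile scaling ended 4 calls: HIST1H4B and HIST2H2AC in WT recovery and HIST1H2BK and HIST2H2BF between the lines at recovery. Scaled by total counts, the summed level of members was 46.9 CPM in WT heat shock, 49.8 CPM in WT recovery and 53.3 CPM in KO recovery, against 48.3, 46.6 and 56.8 CPM.

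With 1 library left out, WT recovery had 1 to 2 higher and 1 to 7 lower, KO recovery 1 to 2 and 0 to 8, the interaction 1 to 1 and 1 to 3, KO against WT 5 to 11 and 1 to 2 at heat shock and 3 to 10 and 2 to 2 at recovery. In recovery such a value rests on 1 pair in that line, whose lone library is assumed to vary like the others. Without the replicate block the interaction had 1 lower, HIST1H2BD lost its call, and 20 of 21 called values of recovery and interaction kept theirs. Adding the replicate block to KO against WT changed no call of a named member. Deviations of same-numbered libraries correlated at -0.0144 in WT, -0.0259 in KO, -0.0782 for KO and WT heat shock and 0.0438 for KO and WT recovery, so the libraries share little beyond a number.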

Other observations

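Histone genes outside the clusters and genes of the proteins that carry histones were tested in the same fits. Of 12 replacement and variant histone genes, 5 fell in WT recovery and 2 rose (41.7% and 16.7%, against 26% and 24.8% of all genes), and in KO 4 and 3 (33.3% and 25%, against 21.1% and 20.6%) (edgeR's quasi-likelihood test, Benjamini-Hochberg adjusted). H1F0, the linker histone of resting cells, changed by 0.82 in WT and -0.36 in KO on the log2 scale, and was lower in KO at heat shock (-0.87) and at recovery (-2.05). H3F3A, encoding the replacement histone H3.3, rose by 2.13 in KO recovery, and its near copy H3F3C, at 0.0893 to 2.62 CPM over the 8 libraries, fell by 2.48. Reads of these copies could be shared, and this was not tested. Of 17 histone chaperone genes, 10 fell in WT recovery and 3 rose (58.8% and 17.6%, against 26% and 24.8% of all genes). In KO 6 fell and 3 rose (35.3% and 17.6%, against 21.1% and 20.6%, the latter near the share of all genes). CHAF1A, a subunit of the chromatin assembly factor that deposits H3.1, fell by 0.91 in WT, gave 0.12 in KO without passing, and was higher in KO at recovery by 1.30. ATRX, which works in H3.3 deposition, rose by 0.83 in WT and fell by 0.73 in KO.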
